A study of Mus musculus with 12 samples.

Results

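Psca was examined together with 9 relatives of the LY6/uPAR family that lie near it on mouse chromosome 15: Ly6e, Ly6a, Ly6d, Ly6k, Ly6f, Slurp1, Lynx1, Lypd2 and Gpihbp1. The set was chosen by name, around the rise of Psca in the transgenic prostate, to ask whether its neighbours share it. Of the 10 genes, 9 were measured by a transcript cluster (a probe set that reads 1 transcript region) with a single gene symbol, out of 19935 genes in all, and Ly6a is not analysed here. Because the contrast between the genotypes set the choice, the genotype differences of the 9 measured members are given as a description, with no p-value of that contrast for a member, and counts of members past its threshold are read as no result.

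The tissue was the anterior prostate lobe of male mice aged 12 weeks, kept on the AIN93G diet from 3 weeks of age, in both genotypes on a background that mixes C57BL/6J with DBA/2 (F3 generation). The transgenic APT121 animals, whose samples are labelled PIN lesion (prostatic intraepithelial neoplasia), express T121, a piece of the SV40 large T antigen known to inactivate pRb and its relatives, from the probasin promoter, which is active in prostate epithelium. Wild type animals, labelled normal, were the controls. Each array held the pooled RNA of 2 mice, so that 8 APT121 mice gave 4 arrays and 16 wild type mice gave 8, and p-values reflect the spread between pools. The whole lobe was measured, so fewer cells of a type and less RNA per cell cannot be told apart. Values are log2 intensities, means are given ± SD over 4 APT121 and 8 wild type arrays, and each difference (APT121 less wild type, log2) is given ± SE. Probasin (Pbsn), the defining secretory marker of the tissue, was at 12.68 to 12.91 in wild type and at 9.12, 9.66, 10.30 and 9.03 in APT121 arrays 1 to 4.

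LY6/uPAR proteins share a small fold of finger-like loops held together by disulphide bonds. Most, such as PSCA, LY6A, LY6D, LY6E and GPIHBP1, are tied to the outer cell membrane by a glycosylphosphatidylinositol (GPI) anchor, while SLURP1 is secreted. In the mouse prostate, Psca and Ly6a (which encodes Sca-1) are known as markers of epithelial cells with progenitor properties, and Ly6d has been described in luminal progenitors. Elsewhere the family is known for binding nicotinic acetylcholine receptors (LYNX1 and SLURP1), for carrying lipoprotein lipase across capillary endothelium (GPIHBP1) and for induction by interferon (Ly6e and Ly6a).

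Psca (transcript cluster 10424662), prostate stem cell antigen, had values of 11.10, 10.91, 10.48 and 11.37 in APT121 arrays 1 to 4, and in wild type it ran from 4.08 to 5.29 with a median of 4.45. Every APT121 array was thus far above every wild type array. The means were 10.97 ± 0.37 in APT121 and 4.55 ± 0.40 in wild type, a difference of 6.41 ± 0.20, and 0 of the 19935 genes had a larger rise. The mean of Psca was 4.81 in wild type arrays 1 to 4 and 4.29 in arrays 5 to 8, which gave differences of 6.15 and 6.67.

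**Figure D1:**
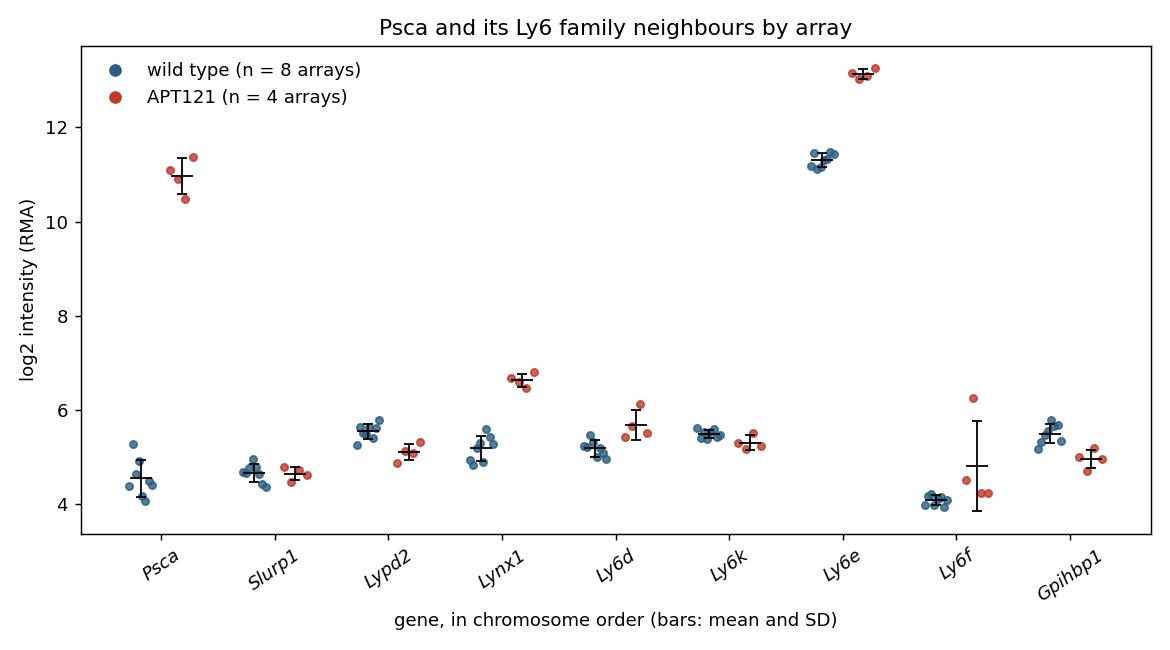
Log2 intensity of the 9 measured genes in each array (vertical axis), in chromosome order (horizontal axis). Points are arrays, each of pooled RNA from 2 mice, and bars are the mean and SD. The groups are far apart for Psca and apart for Ly6e and Lynx1, while for Ly6f 1 APT121 array stands above the others.

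Ly6e and Lynx1 were the other members whose mean was at least 2-fold higher in APT121. Ly6e (10424676), which encodes a widely expressed interferon-inducible surface protein and, in mouse, the receptor of a placental syncytin, had values of 13.14, 13.02, 13.09 and 13.26 in APT121 against 11.13 to 11.47 in wild type (median 11.32). The spread within each genotype was small beside the gap, and no array of one group reached the other. Its means were 13.13 ± 0.10 in APT121 and 11.31 ± 0.14 in wild type, a difference of 1.82 ± 0.08, and 465 genes had a larger rise.

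Lynx1 (10429515), a GPI-anchored modulator of nicotinic receptors known from brain, stood at 6.68, 6.60, 6.47 and 6.80 in APT121. In wild type it ran from 4.84 to 5.61 (median 5.24), again without overlap. The means were 6.64 ± 0.14 in APT121 and 5.19 ± 0.27 in wild type, a difference of 1.45 ± 0.13, and 680 genes had a larger rise.

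Ly6d (10429520), an early marker of B lymphocyte commitment that stratified epithelium also makes, was higher by less. Its APT121 values were 5.44, 5.67, 6.14 and 5.52, and its wild type values ran from 4.95 to 5.48 with a median of 5.20, so that APT121 array 1 lay within the wild type range. The means were 5.69 ± 0.31 in APT121 and 5.19 ± 0.17 in wild type, a difference of 0.50 ± 0.12. APT121 array 3 was the highest, and without it the difference was 0.35.

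Ly6f (10424691), a little-studied Ly6 gene, had a higher mean that rested mostly on 1 array. It was at 6.25 in APT121 array 2 and at 4.51, 4.25 and 4.25 in arrays 1, 3 and 4, while wild type spanned 3.96 to 4.22 (median 4.11). All 4 APT121 values were above the wild type range, those of arrays 3 and 4 by a narrow margin. The difference was 0.73 ± 0.27 with array 2 and 0.25 without it.

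The genes closest to Ly6f in their deviations from the genotype means over 12 arrays were Ptgs2, which encodes the inducible cyclooxygenase (Pearson's r = 0.97), the potassium channel gene Kcnj16 (r = 0.97) and the serpin gene Serpina1f (r = 0.97). All of them were high in APT121 array 2, on which these r values rest: Ptgs2 was at 10.07 there and between 4.29 and 4.49 in the other 3. Serpina1f was at 9.05 against 3.34 to 3.62, and Kcnj16 was at 4.88 against 3.27 to 3.44. Seminal vesicle transcripts were also highest in APT121 array 2, with a summed intensity of 14996 over 6 genes. In wild type array 6, where that sum was 13608, Ly6f was at 4.16, and the part of such tissue in the Ly6f values was not tested.

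**Figure D2:**
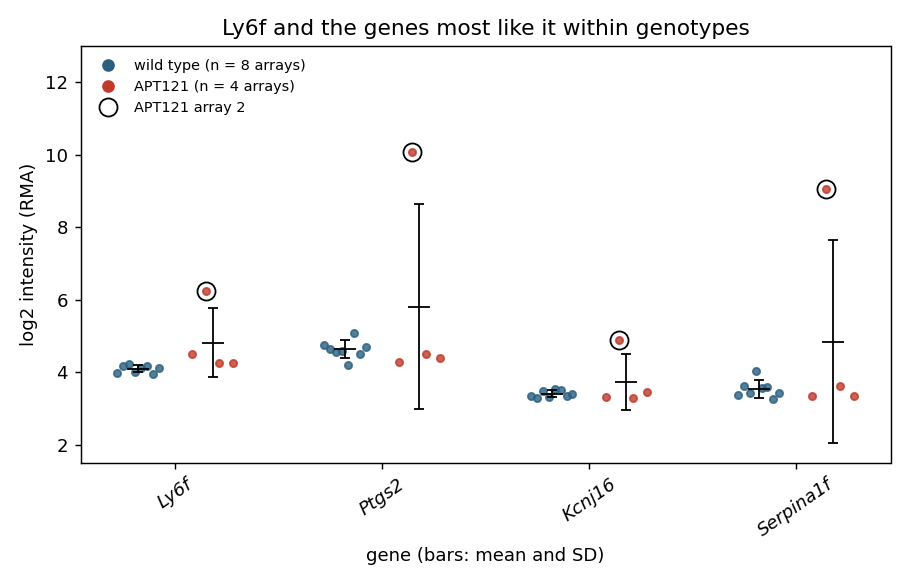
Log2 intensity (vertical axis) of Ly6f and of the 3 genes whose deviations from the genotype means were most like its own (horizontal axis), by array, with the mean and SD. The circled point is APT121 array 2, which stands above the other 11 arrays for each of the 4 genes, at 6.25 for Ly6f and 10.07 for Ptgs2.

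Ly6f is also the member with a promoter entry in the RefSeq table used here (GRCm38.p6, 1 of 10 matched). Its sequence is shown with those of Ly6g and Ly6a2, relatives close by whose differences did not pass the test (0.18 ± 0.09 and -0.03 ± 0.07, adjusted p = 0.104 and 0.732). Each runs from 250 bases before to 50 bases after the annotated start of transcription, 5′ to 3′, with the letters TATAAA in capitals. Ly6f lies at chr15:75268171-75268470 on the plus strand, Ly6g (the first of its listed starts) at chr15:75155011-75155310 on the plus strand and Ly6a2 at chr15:75135079-75135378 on the minus strand.
Ly6f: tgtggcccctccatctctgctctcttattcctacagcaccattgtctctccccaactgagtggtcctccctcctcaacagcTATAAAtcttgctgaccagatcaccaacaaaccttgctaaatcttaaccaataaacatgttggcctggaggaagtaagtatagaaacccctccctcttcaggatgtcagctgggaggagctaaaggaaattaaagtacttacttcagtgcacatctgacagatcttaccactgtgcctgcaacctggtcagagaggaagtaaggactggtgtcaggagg
Ly6g: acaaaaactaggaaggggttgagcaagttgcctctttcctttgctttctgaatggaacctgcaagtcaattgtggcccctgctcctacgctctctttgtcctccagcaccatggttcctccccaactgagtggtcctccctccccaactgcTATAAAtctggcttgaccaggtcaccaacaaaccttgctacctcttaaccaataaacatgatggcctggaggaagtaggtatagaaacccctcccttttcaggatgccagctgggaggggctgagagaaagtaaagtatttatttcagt
Ly6a2: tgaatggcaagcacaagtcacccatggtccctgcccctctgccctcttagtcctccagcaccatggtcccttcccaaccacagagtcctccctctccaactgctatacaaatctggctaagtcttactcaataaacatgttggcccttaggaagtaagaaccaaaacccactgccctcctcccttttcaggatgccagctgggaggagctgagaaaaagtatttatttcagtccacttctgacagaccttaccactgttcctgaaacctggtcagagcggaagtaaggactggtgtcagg

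In alignments of the whole windows, 227 bases of Ly6f matched Ly6a2 over 331 columns (68.6%) and 201 matched Ly6g over 371 (54.2%). Columns with a gap were counted, and the windows are offset against each other. These shares therefore do not rank the 2 relatives by likeness to Ly6f. TATAAA began 169 bases before the annotated start in Ly6f and 99 bases before it in Ly6g, and it had no match in Ly6a2, while 13.6% of 32851 promoters of this length held it on either strand. No match on either strand was found in the 3 windows for AGAACA (the core of the androgen receptor element, in 19.0% of promoters), for TTTGGCGC, TTTCGCGC or TTTCCCGC (E2F, in 0.514%, 0.323% and 1.07%) or for TTCNNNGAA (STAT, 8.3%). The same held for GGGCGG (Sp1, 35.7%), TGACTCA (AP-1, 5.2%), GGAANTCC (NF-kB, 4.77%), the interferon-stimulated response element (3.44%) and the full androgen response element (0.00913%).

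The remaining 4 members were level or lower in APT121. Slurp1 (10429500), which encodes a secreted protein of keratinocytes, had APT121 values of 4.79, 4.47, 4.73 and 4.62, all within the wild type range of 4.38 to 4.96 (median 4.67). Its difference of -0.01 ± 0.10 turned to 0.05 when quantile normalisation was repeated.

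Ly6k (10429528), which mouse sperm need for their function, was at 5.31, 5.17, 5.52 and 5.25 against 5.40 to 5.62 (median 5.50), with APT121 array 3 inside the wild type range and a difference of -0.19 ± 0.07. Lypd2 (10429506) was at 4.89, 5.14, 5.10 and 5.33 against 5.27 to 5.78 (median 5.57), and differed by -0.43 ± 0.10. Its APT121 arrays 1 to 3 were below all wild type arrays and array 4 was not.

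Gpihbp1 (10424695), the capillary carrier of lipoprotein lipase, had the most negative difference of the members. Its APT121 values were 5.01, 4.71, 5.19 and 4.97, and wild type ran from 5.19 to 5.79 (median 5.52), so that the groups met at their edges. The means were 4.97 ± 0.20 in APT121 and 5.50 ± 0.21 in wild type, a difference of -0.54 ± 0.11, and 1517 genes had a larger fall. Against wild type arrays 1 to 4 it was -0.42, and against arrays 5 to 8 it was -0.65.

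Of 24 endothelial markers, the cell type in which GPIHBP1 acts, 21 fell (87.5%, beside 30.0% of all genes) and 0 rose. Their median difference was -0.48, and the summed intensity of the list was 1130 to 1286 in APT121 and 1687 to 2042 in wild type. The junction protein gene Pecam1 differed by -0.53 ± 0.09 (adjusted p = 1.37e-04), the scavenger receptor gene Cd36 by -1.47 ± 0.29, the endomucin gene Emcn by -1.06 ± 0.14 and the VEGF receptor gene Kdr by -0.80 ± 0.09. Adipose markers also fell (6 of 7, or 85.7%, beside 30.0%, with a median of -0.70). The adipokine gene Adipoq differed by -0.88 ± 0.23, the lipid droplet gene Plin1 by -0.75 ± 0.19 and the resistin gene Retn by -0.70 ± 0.17. Sums of the adipose list were 160 to 189 in APT121 and 196 to 434 in wild type. Without wild type arrays 5, 6 and 7 the difference of Gpihbp1 was -0.41. Gpihbp1 was highest in those arrays (5.79, 5.67 and 5.69), so leaving them out was bound to make it smaller. They were not the arrays with the highest adipose sums, since wild type arrays 3 and 8 (333 and 306) lay above array 6 (279). The part of either cell type in the lower Gpihbp1 was not tested.

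In the limma fit, 8 of the 9 measured members were past an adjusted p of 0.05, beside 52.8% of all genes, namely 5 as higher (22.8% of all genes) and 3 as lower (30.0%). The genotypes did not overlap for 4 members, beside 34.6% of all genes, with APT121 above wild type in each of them (17.7%) and below it in 0 (16.9%). Means at least 2-fold higher were found for 3 (5.75%) and 2-fold lower for 0 (1.96%). The contrast chose the set, so nothing is read from these counts. Differences spanned -0.54 to 6.41 with a median of 0.50, against -0.09 for all genes, and the median was 0.24 without Psca. Both genotype means of Ly6f and Slurp1 lay below the median gene of the arrays (5.44 in APT121, 5.38 in wild type), as did the wild type means of Psca, Ly6d and Lynx1. No detection calls were used, so it is not known which of these low values exceed background, and the size of the Psca difference is one of measured intensities.

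The genes around the members were taken from the RefSeq gene order alone. Between Psca and Gpihbp1, the outermost members, 13 further genes were measured, with a median difference of -0.03. Of these, 2 rose (15.4%, beside 22.8% of all genes), 1 fell (7.7%, beside 30.0%) and 10 did not pass. The gene that rose most was Ly6g2 (10424686), a Ly6 gene between Ly6g and Ly6f, with 6.63, 6.38, 6.14 and 6.68 in APT121 and 2.95 to 3.47 in wild type (median 3.20). No array overlapped, and the difference of 3.25 ± 0.11 (adjusted p = 9.55e-13) was exceeded by the rises of 94 genes. Them6, which lies next to Psca and was named after its values were seen, rose by 0.95 ± 0.12 (adjusted p = 5.17e-06) without overlap, and Ly6h, known from brain and also named after its values were seen, differed by -0.23 ± 0.08 (adjusted p = 0.0278).

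Of the 9 measured LY6/uPAR genes of the locus that are not members, 1 rose (11.1%, beside 22.8% of all genes). In this group 1 fell (11.1%, beside 30.0%) and 7 did not pass. Slurp2, which adjoins Lynx1 and shares the synonym SLURP-2 with it in RefSeq, differed by -0.17 ± 0.11 (adjusted p = 0.210) while Lynx1 was higher. Ly6i differed by 0.09 ± 0.11 (adjusted p = 0.503). Ly6 genes of this group resemble each other in sequence, which makes the values of Ly6g2, Ly6f and their relatives uncertain, and clusters annotated to Ly6c1 or Ly6c2 together with other genes were left out. Whether probes of these genes pick up each other's transcripts was not tested.

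**Figure D3:**
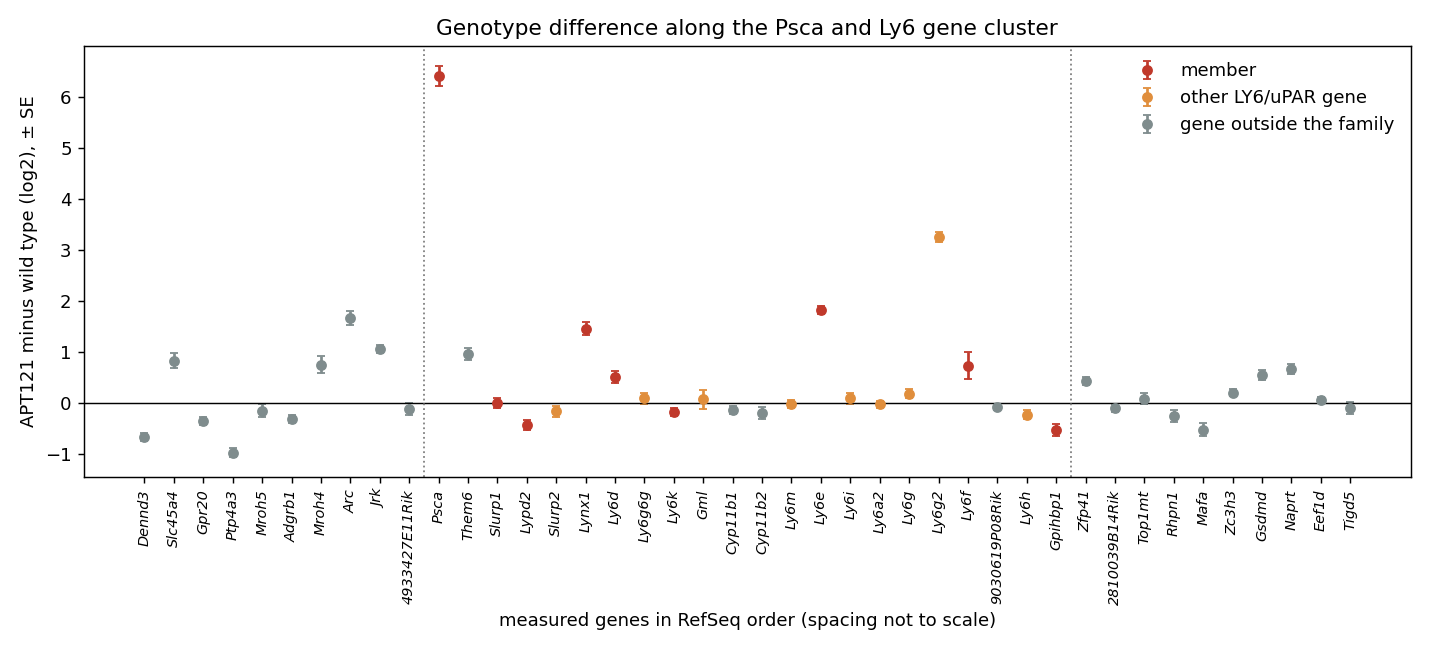
Difference between APT121 and wild type (log2, vertical axis) ± SE for the 42 measured genes of the locus in RefSeq order (horizontal axis, spacing not to scale), with dotted lines at the outermost members. Psca at 6.41 and Ly6g2 at 3.25 stand above their neighbours on either side, and Ly6e, Arc, Lynx1 and Jrk lie between 1 and 2.

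The 10 measured genes on each side of the cluster changed both ways. Beyond Psca, 4 rose (40.0%, beside 22.8% of all genes) and 4 fell (40.0%, beside 30.0%). Arc, an immediate early gene best known from neurons, stood at 6.95, 7.13, 6.40 and 6.75 in APT121 and at 4.82 to 5.54 in wild type, a rise of 1.66 ± 0.14 (adjusted p = 7.68e-08). Jrk, which encodes a nuclear DNA-binding protein, rose by 1.05 ± 0.09 (adjusted p = 3.87e-08). Between these and Psca, the noncoding 4933427E11Rik, the measured gene next to Psca on its outer side, differed by -0.13 ± 0.12 (adjusted p = 0.360). Beyond Gpihbp1, 4 rose and 1 fell, and the nearest gene, the zinc finger gene Zfp41, rose by 0.43 ± 0.08 (adjusted p = 3.16e-04). Over the 33 locus genes outside the set, 10 rose (30.3%), beside 22.8% of all genes, and 6 fell (18.2%), beside 30.0%.

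The spread of the 8 wild type arrays allows a look at whether the members vary with Psca in normal lobes. Pearson's r of Psca with the 8 other members ran from -0.72 for Ly6k to 0.39 for Ly6d. The r of Ly6k had an exact two-sided permutation p of 0.0416 (adjusted p = 0.333 over the 8 relations) and Spearman's rho was -0.74 (exact permutation p = 0.0458, adjusted p = 0.367). Without wild type arrays 2 and 4, the arrays farthest from the median of Psca, r was -0.37. For Ly6e, r was 0.03 (exact permutation p = 0.948), and for Lynx1 r was -0.40 (exact permutation p = 0.328) and rho -0.29 (exact permutation p = 0.501). No relation passed after adjustment, and the low wild type intensity of Psca limits what they can show.

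The genes whose values over the 12 arrays were most like those of Psca were, by Pearson's r, the keratin gene Krt4 (0.9974), the death receptor gene Tnfrsf21 (0.9974), Crybg1 (0.9974), the GTPase regulator gene Abr (0.9968) and the taurine transporter gene Slc6a6 (0.9966). The gap between the genotypes sets these values, since all 12 arrays enter. Genes picked by this r were therefore bound to differ between the genotypes. Krt4 had 9.90, 9.53, 9.11 and 9.94 in APT121 arrays 1 to 4 and 4.33 to 5.51 in wild type, and array 4 was the highest and array 3 the lowest of APT121 for both Krt4 and Psca. The same r picked Krt4, so this shared order is no separate result. The difference of Krt4 was 4.75 ± 0.19, while those of Tnfrsf21, Crybg1, Slc6a6 and Abr were 3.84, 2.04, 1.97 and 1.07.

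Of the LY6/uPAR genes outside the cluster, 24 were measured, of which 3 rose (12.5%, beside 22.8% of all genes), 11 fell (45.8%, beside 30.0%) and 10 did not pass, with a median difference of -0.17. Pate4, which encodes a protein of seminal vesicle fluid, was at 6.98, 11.53, 10.70 and 11.21 in APT121, and in wild type it was at 11.14 in array 6 and between 3.26 and 4.04 in the other 7. Its rise was 5.43 ± 1.23 (adjusted p = 0.00155) with that array and 6.35 without it. Seminal vesicle markers were high in the same arrays, with sums of 1425 to 14996 in APT121, 13608 in wild type array 6 and 78.2 to 172 in the other wild type arrays.

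Cd59a, which protects cells from complement, was at 4.15, 4.04, 3.82 and 3.84 in APT121 and parted the wild type arrays, with 8.09, 7.26, 7.37 and 5.91 in arrays 1 to 4 and 4.98 to 5.38 in arrays 5 to 8. All wild type arrays were above all APT121 arrays. The difference was -2.22 ± 0.50 (adjusted p = 0.00165), and it was -3.20 against arrays 1 to 4 and -1.23 against arrays 5 to 8, past the threshold in both. Its copy Cd59b differed by -0.51 ± 0.13 (adjusted p = 0.00318), and Lypd6, whose product is known from Wnt signalling, by -0.78 ± 0.09 (adjusted p = 1.55e-06). Plaur, the urokinase receptor gene, rose by 0.87 ± 0.18 (adjusted p = 7.80e-04), with APT121 arrays 2 and 4 highest, and Lypd8, known from colon epithelium, rose by 0.47 ± 0.09 (adjusted p = 2.99e-04).

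**Figure D4:**
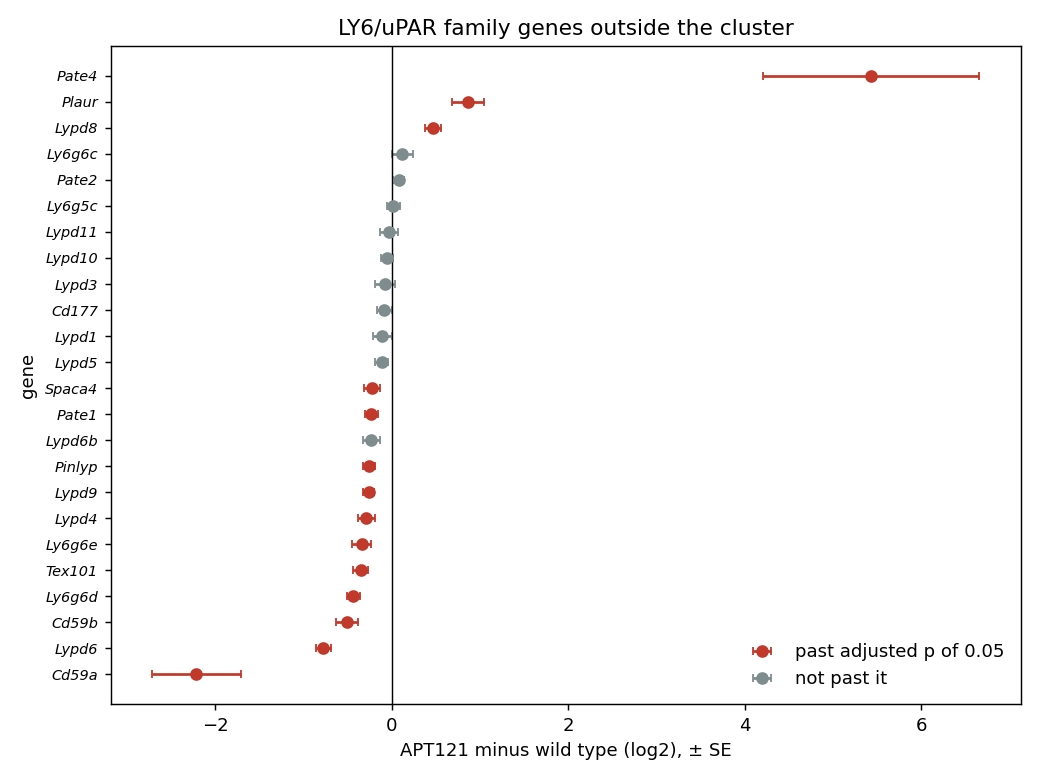
Difference between APT121 and wild type (log2, horizontal axis) ± SE for the 24 measured LY6/uPAR genes outside the cluster (vertical axis), coloured by whether they passed an adjusted p of 0.05. Pate4 at 5.43 has the widest error (SE 1.23), Cd59a at -2.22 is the lowest, and most others lie near or below 0.

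Lists that bear on the members' known roles were counted beside them. Markers of prostate progenitor and proximal luminal epithelium, the cells for which Psca is a known marker, rose for 9 of 10 measured genes, with a median of 2.12. Besides Krt4, the clusterin gene Clu rose by 4.04 ± 0.24 and Ppp1r1b by 3.28 ± 0.13, and Prom1, which encodes a stem cell surface protein, differed by -0.62 ± 0.12 (adjusted p = 6.16e-04). Their summed intensity was 8514 to 15627 in APT121 and 1810 to 2396 in wild type, highest in array 4 and lowest in array 3 of APT121, as for Psca. This sum of linear intensities gives most weight to Clu, with a mean of 12.74 in APT121 and 8.70 in wild type. The array order was not particular to this list. The GPI anchor list had it too (8535 in array 4 and 7729 in array 3), and the luminal, basal and endothelial sums had the reverse. Krt4, picked for its likeness to Psca, is part of the progenitor sum. The part of progenitor and proximal luminal cells in the Psca level was not tested.

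Markers of differentiated luminal cells fell for 5 of 8 and rose for 2 (median -0.56), with probasin (Pbsn) at -3.27 ± 0.17, the transglutaminase gene Tgm4 at -2.74 ± 0.29 and Krt8 at 1.00 ± 0.08. Basal markers fell for 8 of 10 and rose for 1 (median -0.64), among them the laminin gene Lama3 (-1.85 ± 0.16) and Krt5 (-1.29 ± 0.17), while the integrin gene Itgb4 rose by 1.43 ± 0.10. Squamous markers rose for 4 of 11 (36.4%) and fell for 2 (18.2%), with a median of 0.08. The cornified envelope gene Sprr1a rose most (3.60 ± 0.35), and Krt1 differed by 0.69 ± 0.11 and Cnfn by -0.40 ± 0.11. Sums of the basal list were 757 to 840 in APT121 and 976 to 1185 in wild type, and those of the squamous list were 552 to 1659 and 217 to 282. As sums of linear intensities they give most weight to genes of high intensity. In the squamous list that was Sprr1a, with a mean of 9.33 in APT121 and 5.74 in wild type. Basal and squamous cells are known to make Ly6d, and their part in its level was not tested.

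**Figure D5:**
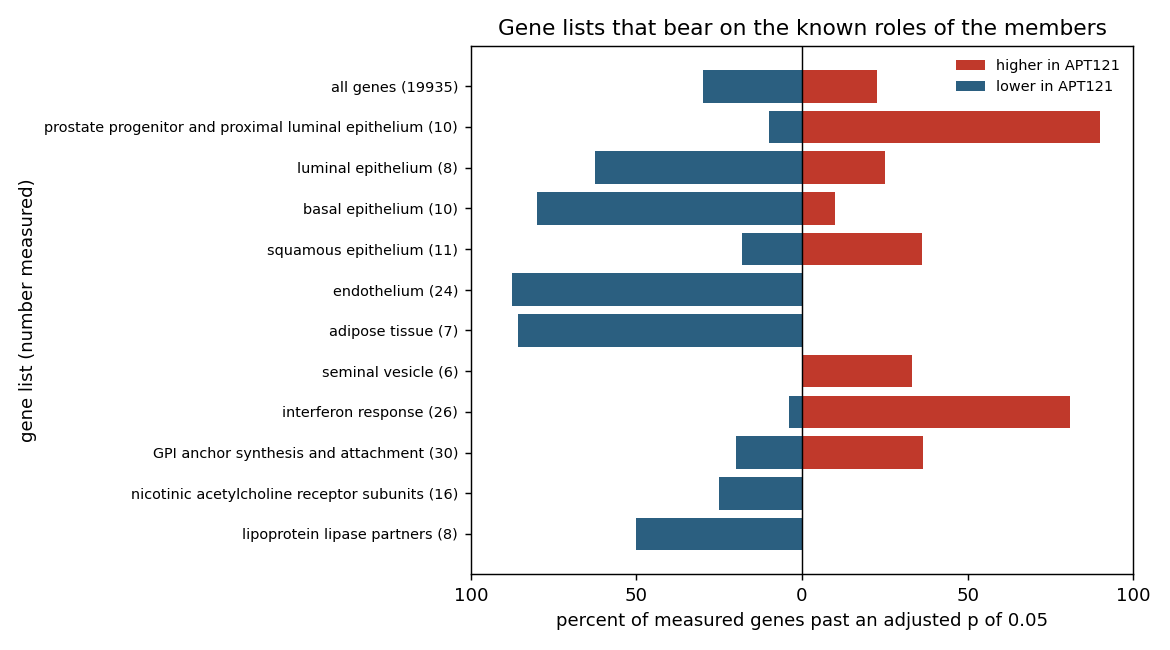
Percent of the measured genes of 11 lists and of all genes (vertical axis, with the number measured) that passed an adjusted p of 0.05, higher in APT121 to the right and lower to the left (horizontal axis). Progenitor and proximal luminal markers (9 of 10) and interferon genes (21 of 26) were mostly higher, endothelial (21 of 24) and adipose (6 of 7) markers mostly lower, beside 22.8% and 30.0% of all genes.

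GPI anchor genes, on which Psca and most of its relatives depend, rose for 11 of 30 and fell for 6, with a median of 0.08. Pgap1, which removes an acyl chain from the anchor after it is attached to the protein, rose by 2.99 ± 0.12 (adjusted p = 1.08e-11), and Piga, which acts in the first step of anchor synthesis, by 1.18 ± 0.08 (adjusted p = 5.77e-09). Gpld1, a secreted phospholipase that cleaves GPI anchors, differed by -1.56 ± 0.06 (adjusted p = 1.18e-11). The transamidase genes, which attach the anchor to proteins and were named after their values were seen, rose for Pigs (0.64), Pigt (0.59), Gpaa1 (0.54) and Pigu (0.38), and Pigk did not pass (-0.10, adjusted p = 0.357).

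Interferon genes, set beside the inducible Ly6e, rose for 21 of 26 (80.8%, beside 22.8% of all genes). In this list 1 fell (3.8%, beside 30.0%), namely Mx1 (-0.36), and the median was 0.88. The antiviral gene Oasl2 rose by 2.39 ± 0.14, the immunoproteasome gene Psmb8 by 2.30 ± 0.12 and the RNA sensor gene Ddx58 by 1.77 ± 0.08. The list summed to 3761 to 5211 in APT121 and 1934 to 2263 in wild type, with APT121 array 3 highest. This sum of linear intensities gives most weight to genes of high intensity, such as Ifitm3, at 10.37 in array 3 and 9.55 in array 4. Single genes differed in their order, with Oasl2 and Psmb8 highest in array 3 (8.53 and 8.28) and Ddx58 in array 4 (8.48). Ly6e was highest in array 4 but ranged over only 0.24 in APT121. The part of interferon in Ly6e was not tested.

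Nicotinic receptor genes, whose products LYNX1 and SLURP1 bind, rose for 0 of 16 and fell for 4 (25%, beside 30.0% of all genes; median -0.20), with Chrna3 at -0.63 ± 0.24, Chrnb4 at -0.39 ± 0.10 and Chrna4 at -0.31 ± 0.10. The call of Chrna3 was lost in 11 of 21 alternative settings. Genes that act with lipoprotein lipase, the cargo of GPIHBP1, fell for 4 of 8 and rose for 0 (median -0.25). Among them were the maturation genes Sel1l (-1.15 ± 0.08) and Lmf1 (-0.65 ± 0.11) and the inhibitor gene Angptl4 (-0.56 ± 0.13), and Lpl itself did not pass (0.48 ± 0.25, adjusted p = 0.123).

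Of the other marker lists, seminal vesicle genes rose for 2 of 6 (33.3%, beside 22.8% of all genes) and fell for 0, with a median of 0.74. Svs2 rose by 6.17 ± 1.26 and Svs5 by 5.10 ± 1.14. Myeloid markers rose for 6 of 9 (66.7%, beside 22.8%) and fell for 1 (11.1%, beside 30.0%), with a median of 0.58. They were led by the cathepsin gene Ctss (1.91 ± 0.10), Fcer1g (1.07 ± 0.20) and Cd68 (0.96 ± 0.16). Lymphocyte markers, set beside Ly6d for its place in B cells, rose for 2 of 9 (22.2%, beside 22.8% of all genes). In this list 1 fell (11.1%, beside 30.0%), and the median was 0.02. The T cell receptor genes Cd3g and Cd3e rose by 1.59 ± 0.13 and 0.24 ± 0.09, and the B cell gene Ms4a1 differed by -0.29 ± 0.06. The call of Cd3e was lost in 12 of 21 alternative settings. Neuronal and glial markers rose for 0 of 7 and fell for 3 (42.9%, beside 30.0% of all genes), namely Rbfox3 (-0.47), Chga (-0.39) and Syp (-0.38), with a median of -0.38. The calls of Chga and Syp were lost in 10 and 12 of 21 alternative settings. Testis and germ cell markers, set beside Ly6k, rose for 1 of 6 (16.7%, beside 22.8%) and fell for 2 (33.3%, beside 30.0%), with a median of -0.16. Dazl rose by 0.22, while Tex101, itself a LY6/uPAR gene, differed by -0.35 and Prm1 by -0.32.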

How the data were processed

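The authors deposited RMA intensities on a linear scale, per the submitters' processing notes, without a program version or genome build in the sources read here. RMA gives all arrays nearly the same distribution (medians of 32.1 to 33.7). Arrays have no read depth, so their number limits the precision.

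Log2 of the deposited intensity was taken. Transcript clusters annotated to exactly 1 symbol were kept (21780 of 28815), and 998 genes with several were represented by the cluster with the highest mean, which left 19935 genes with no filter on low values. Each measured member had 1 cluster. T121 itself is not analysed here.

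The test was limma (version 3.58.1, R 4.3.3; lmFit, eBayes; 12 arrays, no term but genotype, two-sided), adjusted by Benjamini-Hochberg over all genes with a threshold of 0.05, and tested on simulated data. The members, lists and tests were chosen with earlier results of these data known. The naming rule took the members, locus genes past the threshold with an absolute difference of at least 1, the measured genes beside the outermost members, the 6 LY6/uPAR genes elsewhere and 3 genes per other list with the largest differences past the threshold, Lpl, Pbsn, Pecam1, and the genes most like Psca (5) and Ly6f (3). Predicted, noncoding and olfactory receptor genes were left out of the last. Other genes were named after their values were seen. Correlations within wild type were added after the data were seen. Alternatives were median centring, repeated quantile normalisation, filters on low values, eBayes with trend and robust options, the mean of a gene's clusters, a SAM-type statistic after the design text, a replicate block, parts of the wild type arrays, and each array left out.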

Additional observations from a re-analysis of the deposited data

Results flagged for a closer look

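Among 144 groups looked at (72 genes in 2 genotypes), 11 had 1 array far from the others, where chance gives about 1 in 20. Some of these genes were chosen for their likeness to Ly6f and others share an outlying array. The groups are thus not independent, and the count is not read against that share. Ly6f was at 6.25 in APT121 array 2, where the nearest of the other 3 was at 4.51. In the same array Ptgs2 was at 10.07 (nearest 4.49), Serpina1f at 9.05 (3.62) and Kcnj16 at 4.88 (3.44), genes chosen for their likeness to Ly6f. Wild type array 6 stood apart for Pate4 at 11.14 (nearest 4.04), Svs2 at 12.93 (6.34) and Svs5 at 12.15 (5.75). Psmb8 was at 8.28 in APT121 array 3 (nearest 7.82). Chrnb4 was at 4.95 in wild type array 7 (4.53), Fcer1g at 5.01 in wild type array 3 (5.85) and Serpina1f at 4.04 in wild type array 4 (3.61).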

How the results depend on the processing

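Of 65 genes tried under up to 22 alternatives, 55 kept their direction and their side of the threshold in all of them, Psca included (6.15 to 6.67). Most of the 65 were named for large differences past the threshold, and the contrast chose the members. Keeping their side was therefore likely from the start, and the count is no separate support. Slurp1, which passed the threshold in none of them, changed sign after quantile normalisation (0.049), against wild type arrays 5 to 8 (0.086) and when single arrays were left out (-0.061 to 0.046). Ly6k lost its call in 13 of 22 settings and Ly6f in 5 of 21. Calls of Cd3e, Syp, Chrna3, Chga, Prm1, Chrna4 and Dazl were lost in 2 to 12 settings each. Without the lowest 50% of genes, 4 members, 10 locus genes and 4 LY6/uPAR genes elsewhere were called, against 8, 16 and 14. That filter removes genes from these sets, so fewer could be called, and 7096 of all genes were. Psca, Ly6e, Lynx1 and Ly6k were the only members it left, and all 4 were called, from which nothing is read, since the contrast chose the set. Against wild type arrays 1 to 4 alone, 9 LY6/uPAR genes elsewhere and 8899 of all genes were called, against 14 and 10527 with all arrays. With 1 array left out, 7 to 8 members, 14 to 17 locus genes, 11 to 15 LY6/uPAR genes elsewhere, 110 to 122 genes of the other lists (124 with all arrays) and 8979 to 10493 of all genes (10527) were called, 3 members differed at least 2-fold, and the difference of Psca was 6.28 to 6.57. The SAM-type statistic called 10997 genes and 8 members. Deviations of same-numbered arrays of the genotypes correlated at -0.03 to 0.07, and 1 of 4 correlated best with its own number. So few correlations cannot tell whether these arrays share more than a number. In the replicate block, wild type arrays 5 to 8 have no APT121 array of their number and add nothing to the difference. The difference of Psca was thus 6.15, the same as against wild type arrays 1 to 4 alone. With the block, 8814 genes, 6 members, 16 locus genes and 11 LY6/uPAR genes elsewhere were called. Ly6f, Slurp1 and the wild type level of Psca lay below the median gene, and without detection calls their signal over background is not known.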
